A study of Mus musculus with 3 samples.

Results

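The cells described here came from 2 mouse mutants that lacked the same pair of kinase genes from different times on, and they were compared directly with each other. The members were all barcodes of the hGFAP-Cre mutant library and of the Emx1-Cre mutant library with at least 1000 detected genes and under 10% of their UMIs (unique molecular identifiers, each standing for 1 captured RNA molecule) in mitochondrial genes. There were 26334 such barcodes out of 36295 in the series, 13135 from the hGFAP-Cre library and 13199 from the Emx1-Cre library. The remaining 9961 barcodes belonged to the control, which was left out.

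Both mutants carried conditional (floxed) alleles of Map2k1 and Map2k2. In one, Cre was expressed from Emx1, and in the other from a human GFAP promoter (hGFAP). FlashTag, a dye taken up by cells at the ventricle, was injected into the lateral ventricle at embryonic day 18, the dorsal cortex was dissociated with papain 2 days after birth, and sorting for tdTomato fluorescence gave the cells for 10x Genomics libraries. The labels give neither the tdTomato allele, nor the number of pups, nor whether the dye was gated on. Each genotype had 1 library, so no difference below has a replicate check, no test was made, and the 95% intervals cover counting error only.

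Map2k1 and Map2k2 encode MEK1 and MEK2, the kinases that phosphorylate ERK and so pass signals of growth factor receptors to the nucleus. Emx1 becomes active in progenitors of the dorsal telencephalon around the onset of neurogenesis, whereas the human GFAP promoter becomes active in radial glia later in gestation, so the Emx1-Cre mutant stands for early and the hGFAP-Cre mutant for late deletion. Around birth, dorsal progenitors turn from making projection neurons to making astrocytes, oligodendrocytes and olfactory bulb interneurons, and ERK signalling is known for its part in that switch.

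The Emx1-Cre library held 13214 barcodes and 84016524 UMIs, and the hGFAP-Cre library 13139 barcodes and 89917586 UMIs. After 1008 and 1144 predicted doublets were left out, 12191 Emx1-Cre cells (median 4989 UMIs) and 11991 hGFAP-Cre cells (median 5308 UMIs) were analysed. The libraries shared 54 barcodes, 0.409% of the Emx1-Cre barcodes and 0.411% of the hGFAP-Cre barcodes. Pooled over all analysed cells, Map2k1 stood at 13.9 CPM (a gene's UMIs per 1000000 UMIs) in the Emx1-Cre and 16.3 CPM in the hGFAP-Cre library. The level of Map2k2 was 217 CPM in the former and 214 CPM in the latter. A 3' tag is read from the transcript end whether or not the floxed part is gone, so these values do not check the deletion.

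Cells of both libraries were clustered together on marker genes alone, and 30 of 33 clusters were named after the class whose markers were raised. The labelled tissue was borne out by these markers: projection neuron-like, astroglia-like, Cajal-Retzius-like and progenitor-like clusters were all present, and no cluster was named for choroid plexus, fibroblasts or blood. The hGFAP-Cre library held more interneuron-lineage, progenitor and astroglial cells. The Emx1-Cre library held more Cajal-Retzius cells, ependymal cells and projection neurons. Oligodendrocyte precursors took nearly the same share in both.

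Interneuron lineage-like cells, marked by Dlx1, Dlx2, Dlx5 and Gad2, made up 0.837% of Emx1-Cre cells (95% Clopper-Pearson interval 0.683 to 1.01) and 5.08% of hGFAP-Cre cells (4.69 to 5.49), a 6.07-fold larger share. Progenitors of the excitatory lineage (intermediate progenitor-like, with Eomes and Neurog2 raised) took 4.86% and 9.03%, and with an unnamed cluster in which the same markers were raised (cluster 7, with Egfr, Neurog2 and Dll1 among its top genes) 6.80% and 15.3%. Multipotent progenitor-like cells, led by Olig2, Olig1 and Egfr, took 0.935% (0.772 to 1.12) and 1.61% (1.39 to 1.85). All 3 progenitor or interneuron classes thus had intervals that lay apart, with the higher share in the hGFAP-Cre library. With each library clustered alone, the log2 ratio of the interneuron share was 1.13 in place of 2.60.

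Astroglia-like cells made up 15.1% (14.5 to 15.7) of Emx1-Cre and 18.99% (18.3 to 19.7) of hGFAP-Cre cells, a log2 ratio of 0.33. A second group, cluster 17, had all 12 astroglia markers raised but was led by Ogn, Acta2 and Cryab and stayed unnamed; it held 0.582% of Emx1-Cre and 5.34% of hGFAP-Cre cells. Joined with it and with unnamed cluster 31, which mixed astroglia and Dlx genes, astroglia took 15.7% and 24.7%, a log2 ratio of 0.66. With at least 2000 genes required per cell the astroglial log2 ratio turned to -0.0256. Oligodendrocyte precursor-like cells took 2.32% (2.06 to 2.60) and 2.41% (2.14 to 2.70), intervals that overlap. Their median depth was 3646 UMIs in the Emx1-Cre and 6770 UMIs in the hGFAP-Cre library, and with at least 2000 genes per cell their log2 ratio was 1.55.

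Cajal-Retzius-like cells, the Reln-producing neurons of the outermost layer, made up 11.6% (11.1 to 12.2) of Emx1-Cre and 3.13% (2.82 to 3.45) of hGFAP-Cre cells, 3.72-fold less. Ependymal-like cells, which carry motile cilia, took 10.0% (9.50 to 10.6) and 3.63% (3.30 to 3.98), 2.76-fold less. Projection neuron-like cells took 47.8% (46.9 to 48.7) and 40.4% (39.5 to 41.3). Microglia-like cells (2.03% and 2.58%), mural-like cells (1.58% and 0.692%) and endothelial-like cells (0.361% and 0.400%) were present although neither driver is known to act in microglia or vessels. The sort could set all of these shares, and its part in them was not tested.

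**Figure D1:**
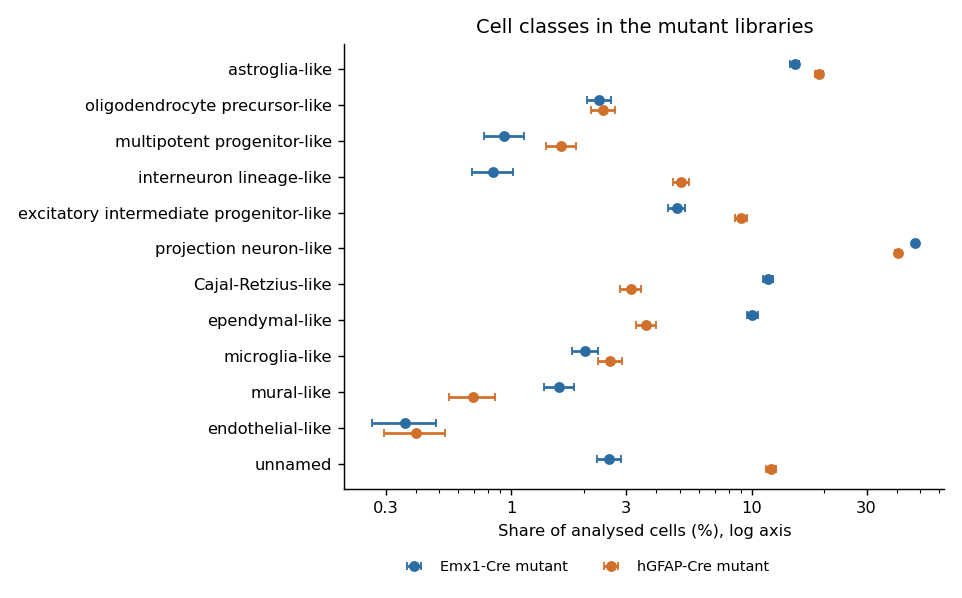
Share of analysed cells (percent, log axis) of each cell class in the Emx1-Cre mutant (blue) and hGFAP-Cre mutant (orange) libraries, with bars for the 95% Clopper-Pearson interval. Interneuron lineage-like cells go from 0.837% to 5.08%, while Cajal-Retzius-like cells go from 11.6% to 3.13% and the oligodendrocyte precursor-like intervals overlap.

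Gene levels were compared within a class as CPM of its summed UMIs, and a gene was called from a 2-fold difference on (pseudocount 5 CPM) if it reached 10 CPM in either library. In astroglia-like cells 1326 of 8730 measured genes were called (15.2%), 886 higher (10.1%) and 440 lower (5.04%) in the hGFAP-Cre mutant. Genes of ERK output and cell division were lower with late deletion. Genes of the p53 response, of dorsal telencephalic identity, of the SHH pathway and of motile cilia were higher. The median log2 ratio over all measured genes was 0.25, and after centring on it 571 genes were higher and 645 lower, so that 47.0% in place of 66.8% of called genes were higher. The libraries also filled different clusters of this class. Cluster 0, led by Tnc, Car2 and Has2, held 1660 of the 1839 Emx1-Cre cells, whereas cluster 2, led by Prm1, Aldoc and Cldn10, and cluster 19 held 1513 and 539 of the 2277 hGFAP-Cre cells.

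The transcripts that report ERK activity were lower in hGFAP-Cre than in Emx1-Cre astroglia-like cells. Of 16 measured members of the ERK response list, 11 were called lower and 2 higher, with a median log2 ratio of -1.20. Spry1, a feedback inhibitor of receptor signalling (chromosome 3, 37639947 to 37644598, GRCm38), stood at 75.3 CPM (71.0 to 79.9) in the Emx1-Cre and 3.94 CPM (2.96 to 5.13) in the hGFAP-Cre library. Ier3, an early response gene, stood at 170 and 27.5 CPM. Dusp6, the phosphatase that removes phosphate from ERK, stood at 25.3 and 3.72 CPM. Etv1, an ETS factor induced by FGF signalling, stood at 86.7 and 26.4 CPM. Spry2 (200 and 79.6 CPM), Spry4 (15.2 and 4.66), Etv4 (42.3 and 12.7), Etv5 (42.4 and 16.7), Dusp5 (12.5 and 1.17), Myc (27.8 and 8.89) and Ccnd1 (122 and 51.7) shared this direction, while Phlda1 (65.1 and 170) and Epha4 (44.4 and 97.2) were higher.

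Within clusters that both libraries fill the difference was smaller. In cluster 0, 4 of 16 members were lower and none higher, with a median of -0.68 (-1.19 to -0.09). In cluster 2, 3 of 14 were lower and 1 higher, with a median of -0.61 (-1.15 to 0.09), an interval that spans 0. Spry1 had a log2 ratio of -1.43 and -2.75 there. In microglia-like cells, where Cre is not known to act, the same list had a median of 0.09. The cascade itself (receptors' adaptors, RAS, RAF and ERK genes) had no member among 17 measured past 2-fold, with a median of 0.38. Of 11 measured receptor tyrosine kinases, Pdgfrb (3.35 and 51.0 CPM), Ntrk2 (176 and 831) and Fgfr2 (47.0 and 99.3) were called higher and Egfr (34.0 and 13.3) lower. Pdgfrb and Egfr were clustering markers, and Egfr had log2 ratios of 0.49 and 0.52 within clusters 0 and 2.

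Immediate early genes, which are switched on within minutes of a stimulus and also by tissue dissociation, split in astroglia-like cells. Egr1, a zinc finger factor downstream of ERK, stood at 355 CPM in the Emx1-Cre and 18.9 CPM in the hGFAP-Cre library. Nr4a1 stood at 131 and 12.1 CPM, Ier2 at 322 and 47.5 CPM, Junb at 563 and 89.7 CPM. Jun (322 and 782 CPM), Jund (659 and 1978 CPM) and Klf4 (34.7 and 83.8 CPM) were on the other side, and Fos was nearly level at 1241 and 1324 CPM. In all, 6 of 16 measured members were lower and 3 higher (median 0.02). Egr1 and Ier2 had the opposite order in microglia-like cells, with log2 ratios of 2.35 and 1.15, and the order in astroglia was kept in cluster 0 (-2.21 for Egr1) and cluster 2 (-3.68). After every cell was thinned to 3000 UMIs, 51.8% of Emx1-Cre and 3.51% of hGFAP-Cre astroglia-like cells had an Egr1 UMI.

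**Figure D2:**
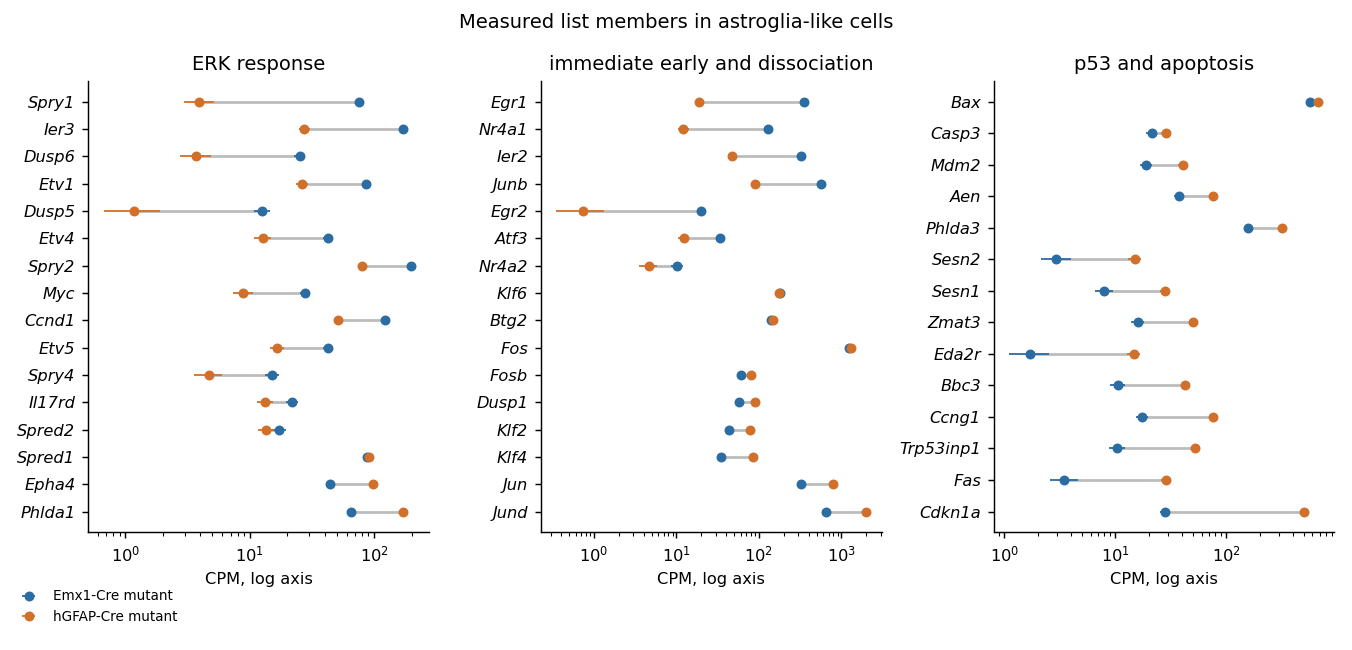
CPM (log axis) of every measured member of 3 gene lists in astroglia-like cells of the Emx1-Cre mutant (blue) and the hGFAP-Cre mutant (orange), with exact Poisson intervals as thin bars. ERK response members mostly lie lower in the hGFAP-Cre library (Spry1 75.3 and 3.94 CPM), p53 members lie higher (Cdkn1a 28.0 and 499 CPM) and immediate early genes split.

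Genes of cell division were lower in astroglia-like cells of the hGFAP-Cre mutant. All 20 measured G2/M genes were called lower (median -2.33) and 17 of 19 S phase genes (median -1.30), with none higher. Ube2c, which marks mitotic exit, stood at 643 and 66.0 CPM, Cenpa, the centromeric histone, at 355 and 46.2 CPM, and Rrm2, a ribonucleotide reductase subunit, at 145 and 26.2 CPM. Cells holding Mki67 or Top2a UMIs, called cycling here, made up 32.0% (29.9 to 34.3) of Emx1-Cre and 3.73% (2.99 to 4.6) of hGFAP-Cre astroglia-like cells after each cell was thinned to 3000 UMIs, and 45.4% and 5.75% before thinning. Within cluster 0 the shares were 33.5% and 8.44%, and within cluster 2 they were 18.5% and 3.70%. Mural-like cells, which are not of this lineage, had the same order (23.3% and 2.41%), and microglia-like cells the reverse (6.67% and 10.0%). Ccnd2, a D-type cyclin of neural progenitors, stood at 1191 and 302 CPM, while Cdk6 (12.3 and 47.2 CPM) and Ccnd3 (24.2 and 56.9 CPM) were higher.

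Targets of p53 were higher in hGFAP-Cre astroglia-like cells: 9 of 14 measured members were called higher and none lower, with a median log2 ratio of 1.38. Cdkn1a, which encodes the cell cycle inhibitor p21 (chromosome 17, 29090976 to 29100727), stood at 28.0 CPM (25.3 to 30.8) and 499 CPM (487 to 511). Fas, a death receptor, stood at 3.49 and 28.6 CPM, Trp53inp1 at 10.5 and 52.2 CPM, Ccng1 at 17.6 and 75.9 CPM, and Bbc3, a pro-apoptotic BCL2 family member, at 10.5 and 42.8 CPM. Bax was nearly level at 567 and 673 CPM. Within cells without an Mki67 or Top2a UMI the list's median was 1.39. In cluster 0, 8 of 14 were higher (median 1.18), and in cluster 2, 5 of 14 (median 0.95). In microglia-like cells Cdkn1a was also higher (99.5 and 332 CPM) with Aen, and the other measured p53 genes there were within 2-fold.

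Genes of dorsal telencephalic (pallial) identity were higher with late deletion, 8 of 12 measured and none lower, with a median of 1.19. Emx1 itself stood at 2.26 CPM in the Emx1-Cre and 84.0 CPM in the hGFAP-Cre library (chromosome 6, 85187438 to 85204462). The Cre of the first library is driven by this gene, and what that does to its transcript was not tested. Emx1 was less far apart in projection neuron-like cells (38.7 and 108 CPM). At 3000 UMIs per cell, an Emx1 UMI was seen in 20.6% and 23.5% of intermediate progenitor-like, 22.6% and 29.7% of ependymal-like and 0.771% and 21.7% of astroglia-like cells, beside 0% and 2.27% of microglia-like cells. Among the other members, Lhx2, a cortical selector gene, stood at 85.8 and 314 CPM, Pax6 at 62.3 and 224 CPM, Id4 at 101 and 362 CPM and Hopx at 135 and 458 CPM. Emx2 (31.9 and 41.0 CPM) was within 2-fold. Within cluster 0 the list had 6 of 12 higher and a median of 0.97, and within cluster 2 it had 4 of 12 and 0.60.

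The SHH pathway had 6 of 7 measured members called higher (median 1.29). Among its receptors and co-receptors, Cdon stood at 4.10 and 40.4 CPM, Gas1 at 36.0 and 189 CPM and Ptch1 at 19.004 and 50.1 CPM. Of its transcription factors, Gli3 stood at 28.7 and 84.8 CPM and Gli1, a direct target, at 1.44 and 10.8 CPM. In cluster 0, 5 of 6 members were higher (median 1.14), and in cluster 2, 4 of 7 (median 1.04). In NOTCH signalling 2 of 14 measured members were called (14.3%), near the 15.2% of all measured genes. They were the receptor Notch2 (53.9 and 259 CPM) and the ligand Jag1 (9.84 and 42.9 CPM). The clustering marker Hes5 (569 and 540 CPM) and Hes1 (250 and 177 CPM), both targets, were within 2-fold. In WNT signalling, 5 of 18 were higher and 2 lower. Sfrp1, a secreted inhibitor, stood at 31.4 and 357 CPM, and Lef1, a nuclear effector, at 45.5 and 1.53 CPM. Among BMP and ID genes, Bmp7 (21.3 and 3.64 CPM) and Smad5 (141 and 58.6 CPM) were lower, and Id4 was the 1 of 13 that was higher.

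Motile cilium genes were higher in hGFAP-Cre astroglia-like cells, 9 of 11 measured members with a median of 1.64. Nme5 stood at 12.8 and 137 CPM, Foxj1, the master factor of multiciliated cells, at 6.36 and 49.2 CPM, Rsph9, a radial spoke protein, at 27.8 and 131 CPM, and Tekt1 at 4.92 and 37.7 CPM. The inducers of multiciliated fate Mcidas and Ccno were at or below 1 CPM in both (0 and 0 for Mcidas, 0.479 and 0.437 CPM for Ccno). Within cluster 0 the list kept this order, with 8 of 10 higher and a median of 1.57. Within cluster 2, which holds 1513 of the 2277 hGFAP-Cre cells, 2 of 13 were higher, with a median of 0.32 (-0.38 to 1.05). There Foxj1 had a log2 ratio of 0.25 and Tekt1 of -0.47. Foxj1 and Tekt1 were also clustering markers.

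Cholesterol synthesis genes leaned the same way (7 of 21 called higher, none lower, median 0.64), with Hmgcs1 at 255 and 746 CPM and Nsdhl at 39.7 and 103 CPM. Among 15 matrix and adhesion genes 5 were lower and 2 higher, with a median of -0.25 that turned to 0.19 within cluster 0 and 0.04 within cluster 2. Tnc, the tenascin of the germinal zone, stood at 1224 and 492 CPM, Lama4 at 18.05 and 1.17 CPM and Cd44 at 58.1 and 19.1 CPM, while Sparc stood at 273 and 945 CPM. Sparc was also higher in microglia-like cells (log2 ratio 2.99). Reactive and mesenchymal-like genes split as well, with 5 of 16 lower and 3 higher (median -0.04). Has2, a hyaluronan synthase, stood at 88.7 and 4.59 CPM, S100a6 at 133 and 912 CPM and Cryab, a small heat shock protein, at 29.1 and 168 CPM. Within cluster 0 this list leaned higher in the hGFAP-Cre library, with 8 of 19 measured members higher, 2 lower and a median of 0.80. S100a6 and Cryab were higher in microglia-like cells too (2.43 and 1.25), and Cryab had a log2 ratio of -0.24 within cluster 2. Astrocyte maturation genes were mostly within 2-fold (2 of 13 higher, median 0.26): Clu stood at 75.4 and 495 CPM and the clustering marker Aldoc at 584 and 1567 CPM, while Gfap, the astrocytic intermediate filament, stood at 166 and 303 CPM. Of these 13 genes, 5 were clustering markers, and without markers the median was 0.48. The clustering markers Olig1 (153 and 17.3 CPM) and Olig2 (86.6 and 8.89 CPM) were lower in astroglia-like cells, with log2 ratios of -1.62 and -1.38 in microglia-like cells. Within cluster 0, however, none of 5 measured oligodendrocyte lineage genes was called lower and 1 was higher (median 0.21). Of the stress lists, beside 15.2% of all measured genes, the called members were 1 of 12 heat shock chaperones, 3 of 11 integrated stress response, 2 of 11 interferon and 3 of 14 hypoxia and glycolysis genes.

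Genes outside the lists and markers were ranked after those called in the same direction in microglia-like cells or in at least 6 classes were left out. Prm1 was among the genes so left out. Of the rest, those with the highest ratio were Entpd2, an ectonucleotidase of neural stem cells and astrocytes (17.4 and 315 CPM), Tmem132b (4.24 and 122 CPM), Pter (11.01 and 198 CPM), Tspan18 (1.57 and 77.4 CPM), Fstl5 (6.56 and 121 CPM), Riiad1 (18.7 and 251 CPM), Plagl1 (9.02 and 138 CPM) and Enkur (5.47 and 94.9 CPM). In the same ranking, the genes with the lowest ratio were Npy, a neuropeptide (149 and 5.10 CPM), Plvap (84.8 and 2.40 CPM), the glutamate receptors Grm5 (97.5 and 5.68 CPM) and Grm3 (135 and 13.6 CPM), Nrgn (62.7 and 2.48 CPM), Tmem176a (147 and 12.02 CPM), Cdca3 (164 and 18.4 CPM) and Serpinf1 (60.7 and 4.23 CPM). In cluster 0, 734 of 8550 genes were called (8.58%), 6.26% higher and 2.33% lower, and in cluster 2, 956 of 8853 (10.8%), 6.39% higher and 4.41% lower. All 8 higher and all 8 lower genes above stayed at least 2-fold apart in the same direction within cluster 0 and within cluster 2. These genes were picked as the furthest apart in the class that holds the same cells. Of 67 list members named for this class, 33 stayed at least 2-fold apart in both clusters and 64 kept their direction. In microglia-like cells Nrgn stood at 22.9 and 13.5 CPM, within 2-fold, and Grm5 was below 10 CPM in both libraries. Because genes called in the same direction there had been left out of the ranking, these values are no check.

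In oligodendrocyte precursor-like cells, the myelin genes Mbp and Cnp were higher in the hGFAP-Cre library, while the lineage list as a whole had a median log2 ratio of 0.18. There 375 of 8926 measured genes were called (4.2%), 175 higher (1.96%) and 200 lower (2.24%). Mbp, myelin basic protein, stood at 130 CPM in the Emx1-Cre and 712 CPM in the hGFAP-Cre library, Cnp at 208 and 663 CPM and the clustering marker Bcas1 at 256 and 895 CPM. Enpp6, an early marker of newly forming oligodendrocytes, stood at 11.7 CPM (6.40 to 19.6) and 118 CPM (103 to 133), and Bmp4 at 11.7 and 106 CPM. Of 14 measured lineage genes 4 were higher, Pcdh15 (175 and 71.6 CPM) was lower and 9 were within 2-fold. Enpp6 and Bmp4 are not in that list. The precursor genes Pdgfra (829 and 479 CPM) and Cspg4 (193 and 97.5 CPM) and the lineage factors Olig2 (545 and 631 CPM) and Sox10 (167 and 233 CPM) were within 2-fold. These were clustering markers, so their near-level values describe the cells so named. In all, 8 of the 14 lineage genes were such markers, and without markers the list's median was 0.99.

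At 3000 UMIs per cell, 3 of 237 Emx1-Cre and 49 of 289 hGFAP-Cre precursor-like cells had an Enpp6 UMI (1.27% and 17.0%), and none of the 240 and 309 microglia-like cells had one (upper 95% bounds 1.53% and 1.19%). Mbp UMIs were in 7.59% and 22.5% of precursor-like cells and in 2.08% and 2.59% of microglia-like cells. Astrocytic transcripts had the reverse order in this class: 9 of 13 measured maturation genes were lower and none higher. Gfap stood at 38.5 CPM in Emx1-Cre precursor-like cells and had 0 UMIs in the hGFAP-Cre cells, and Aqp4, a water channel of astrocytic end feet, stood at 28.4 CPM and 0 UMIs. Apoe stood at 456 and 131 CPM, Tnc at 79.4 and 3.36 CPM and Id3 at 408 and 97.0 CPM. Tnc (15.5 and 2.69 CPM) and Id3 (46.4 and 13.01 CPM) had the same order in microglia-like cells. The ERK response had 1 of 16 members called, Phlda1 (370 and 171 CPM, lower), with a median of -0.53, and Spry1 stood at 163 and 109 CPM. The share of cycling cells was 17.7% and 19.03%.

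**Figure D3:**
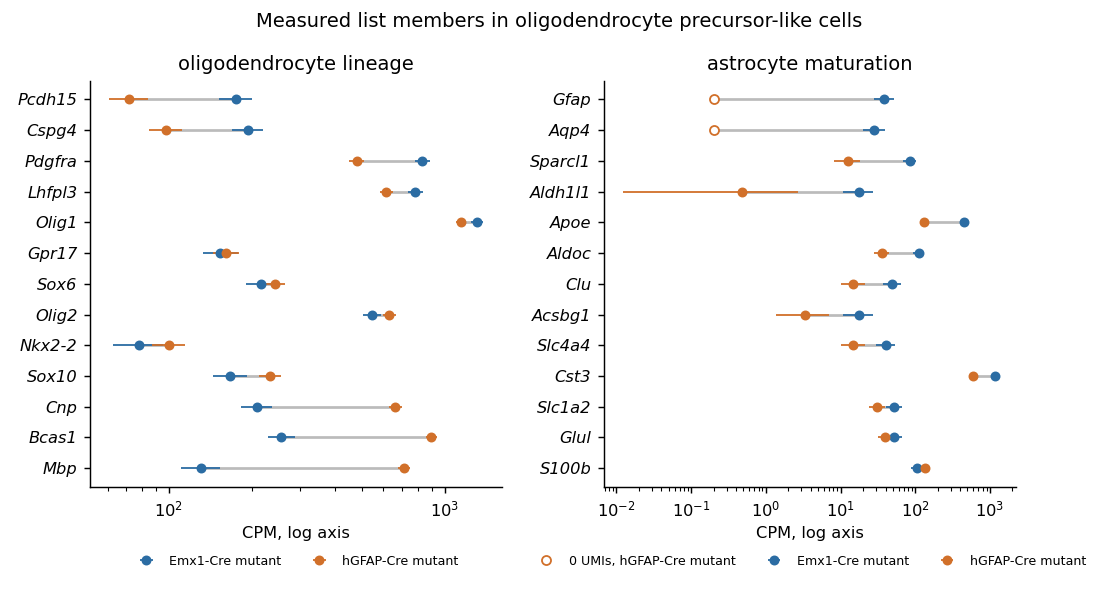
CPM (log axis) of measured members of the oligodendrocyte lineage list (left) and the astrocyte maturation list (right) in oligodendrocyte precursor-like cells of the Emx1-Cre (blue) and hGFAP-Cre (orange) mutants, with exact Poisson intervals; open circles at the left stand for 0 UMIs. Mbp (130 and 712 CPM) and Cnp (208 and 663 CPM) lie far to the right in the hGFAP-Cre library, and most astrocytic genes lie to the left.

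Multipotent progenitor-like cells, the Egfr-expressing intermediate cells that can give glia and interneurons, had 295 of 7737 genes called (3.81%), 207 higher (2.68%) and 88 lower (1.14%). Of the excitatory neurogenesis list 1 of 5 measured members was higher and 1 lower, and of the interneuron lineage factors 2 of 7 were higher. The NOTCH ligands Dll1 (4.24 and 49.6 CPM) and Dll3 (6.37 and 49.6 CPM) and the NOTCH antagonist Hes6 (51.6 and 280 CPM) were the 3 of 13 pathway members called. Gsx2, a homeobox factor of the interneuron lineage, stood at 6.37 and 41.4 CPM, and Olig1 at 318 and 916 CPM. Dll1, Dll3, Gsx2 and Olig1 were among the clustering markers, so these are descriptions of the cells so named. By the ranking used for astroglia-like cells, Draxin (4.24 and 54.7 CPM) was among the highest outside the lists, and Plvap (118 and 17.9 CPM) and Nrgn (231 and 41.4 CPM) the lowest. None of 14 measured ERK response genes was called (median 0.09), and Spry2 stood at 199 and 182 CPM. Cycling cells made up 60.5% (50.9 to 69.6) and 38.3% (31.5 to 45.6).

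In interneuron lineage-like cells, S phase genes were higher in the hGFAP-Cre library, though only 102 Emx1-Cre cells stood against 609. The Emx1-Cre cells of this class summed to 451905 UMIs, so that 3 UMIs made 6.64 CPM. Of 8443 measured genes 516 were called (6.11%), 332 higher (3.93%) and 184 lower (2.18%), and 15 of 19 S phase genes were among the higher ones (median 1.41). Only 2 of 20 G2/M genes were higher, with a median of 0.37 (-0.47 to 1.09), an interval that spans 0. Mcm4, a helicase subunit, stood at 4.43 CPM (0.536 to 16.0) and 36.0 CPM (30.01 to 42.8), and Rrm2 at 26.6 and 122 CPM. Gmnn, the replication licensing inhibitor geminin, stood at 6.64 and 67.2 CPM. Of 15 lineage factors 3 were called higher and 12 were within 2-fold (median 0.34). Among the 3 were Sp9 (108 and 238 CPM) and Gsx2 (2.21 and 30.9 CPM, the former from 1 UMI), while Dlx1 (241 and 307 CPM) and Dlx2 (252 and 319 CPM) were within 2-fold. Fezf2 (33.2 and 3.69 CPM) and Bhlhe22 (128 and 40.5 CPM), factors of projection neurons, were lower. All of these lineage and projection neuron factors were clustering markers. The share of cycling cells was 6.17% (2.03 to 13.8) and 11.99% (9.51 to 14.8), intervals that overlap.

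Excitatory intermediate progenitor-like cells differed in few genes: 105 of 8101 were called (1.3%), 48 higher (0.593%) and 57 lower (0.704%). None of the 11 measured members of the neurogenic list was past 2-fold, but 8 of them were clustering markers, which limits how far they could differ. The list's median was 0.18, and -0.34 without markers. Among the markers, Eomes and Neurog2 stood at 673 and 531 CPM and at 381 and 492 CPM. The p53 targets Cdkn1a (20.4 CPM, 15.5 to 26.5, and 301 CPM, 288 to 314) and Phlda3 (6.10 and 54.5 CPM) were higher, with 4 of 12 list members called. By the ranking used for astroglia-like cells, the neuropeptides Npy (6.81 and 167 CPM) and Sst (1.43 and 53.3 CPM) were the highest outside the lists. Npy thus had opposite orders in this class and in astroglia-like cells. S100a10 (40.9 and 10.7 CPM) and Id3 (46.3 and 10.2 CPM) were lower. In unnamed cluster 7 Cdkn1a stood at 29.1 and 490 CPM, Phlda3 at 5.96 and 115 CPM and Hopx at 3.31 and 73.2 CPM, among 202 of 8170 genes called (2.47%; 1.48% higher and 0.991% lower). In unnamed cluster 17, which had the astroglia markers raised, 934 of 9183 genes were called (10.2%; 5.44% higher and 4.73% lower). Spry1 stood there at 33.3 and 0.352 CPM and Ccnd1 at 124 and 18.3 CPM, as in the astroglia-like class both lower, from 71 and 640 cells.

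Projection neuron-like cells had 175 of 8078 genes called (2.17%), 78 higher (0.966%) and 97 lower (1.2%). Among the genes lower in the hGFAP-Cre library, Crym stood at 147 and 29.98 CPM, Rprm at 314 and 89.6 CPM, S100a10 at 387 and 93.9 CPM and Rgs4, a regulator of G protein signalling, at 59.9 and 9.15 CPM. Fezf2 (101 and 33.8 CPM) and Bcl11b (203 and 73.5 CPM), factors that specify subcortically projecting neurons, had the same order but were clustering markers. Of 16 layer factors 3 were lower and 2 higher: Pou3f2, a factor of upper layers, stood at 230 and 588 CPM and the clustering marker Tbr1, a factor of deep layers, at 53.2 and 121 CPM. Of the excitatory neurogenesis list 3 of 10 measured members were higher and 7 within 2-fold (median 0.51). Beside Tbr1 the higher ones were Unc5d (112 and 261 CPM) and Neurod1 (60.3 and 128 CPM). Sfrp1 (29.1 and 99.7 CPM), Sfrp2 (8.19 and 43.8 CPM), Luzp2 (43.4 and 134 CPM), Nrn1 (50.7 and 154 CPM) and Plekhf2 (38.7 and 119 CPM) were higher as well.

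The libraries filled different clusters of projection neurons, and the part of that makeup in these values was not tested. Cluster 8 (led by Bcl11b) and cluster 15 (led by Rprml, with Crym and Fezf2 among its top genes) held 693 and 641 Emx1-Cre against 265 and 117 hGFAP-Cre cells. Clusters 3, 5 and 6, led by Sstr2, Tle4 and Cux2, held 868, 685 and 696 hGFAP-Cre against 622, 588 and 426 Emx1-Cre cells. None of 9 measured ERK response genes was called.

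Cajal-Retzius-like cells differed little, with 84 of 8022 genes called (1.05%), 35 higher (0.436%) and 49 lower (0.611%). Immediate early genes were 7 of the 35 higher ones, out of 13 measured (median 1.10): Fos stood at 181 and 684 CPM, Junb at 63.7 and 226 CPM, Btg2 at 29.1 and 113 CPM and Egr1 at 11.8 and 47.3 CPM. Calb1, a calcium-binding protein, stood at 103 and 28.3 CPM, and Mpped1 at 36.9 and 139 CPM. The immediate early list also had 11 of 19 members higher and 1 lower in mural-like cells (median 1.07), beside 7.98% of all measured genes higher there. In microglia-like cells 3 of 18 were higher and 1 lower (median 0.52). Projection neuron-like cells had the reverse order, with 2 of 13 lower and none higher (median -0.59). In ependymal-like cells 168 of 9074 genes were called (1.85%), 74 higher (0.816%) and 94 lower (1.04%). There Scrn1 stood at 7.30 and 73.2 CPM, Bst2, an interferon-induced membrane protein, at 68.1 and 225 CPM and Hmgcs1 at 70.9 and 177 CPM, whereas Lect1 stood at 52.4 and 3.33 CPM, Tmigd1 at 89.2 and 10.7 CPM and Anxa1 at 573 and 227 CPM. Motile cilium genes did not follow the astroglial order in this class, with none of 21 measured members called and a median log2 ratio of -0.13. Cells with an Mki67 or Top2a UMI took 47.5% (44.7 to 50.3) and 44.6% (39.9 to 49.4) of ependymal-like cells. Whether these ependymal-like cells divide was not tested.

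Microglia and vessel cells lie outside the lineages in which the drivers are known to act. In microglia-like cells 344 of 7655 genes were called (4.49%), 171 higher (2.23%) and 173 lower (2.26%). Siglech (8.11 and 88.4 CPM), S100a4 (12.5 and 98.3 CPM) and the chemokine Ccl5 (0 UMIs and 53.4 CPM) were higher, and the antigen-presenting genes H2-Aa (143 and 8.97 CPM) and H2-Eb1 (124 and 8.08 CPM) and the macrophage receptor Timd4 (62.7 CPM and 0 UMIs) were lower. Cluster 22, led by Lyz2 and Spp1, held 206 Emx1-Cre and 150 hGFAP-Cre cells, and cluster 27, led by Ccl4 and C1qa, held 41 and 159. In mural-like cells 1278 of 8858 genes were called (14.4%; 7.98% higher and 6.45% lower), from 193 and 83 cells. The hGFAP-Cre cells of this class summed to 373318 UMIs, so that 3 UMIs made 8.04 CPM, and their share of called genes is not comparable with that of deeper classes. There 19 of 20 G2/M genes were lower (median -2.42), and Spry1 stood at 104 and 370 CPM, the reverse of the astroglial order.

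**Figure D4:**
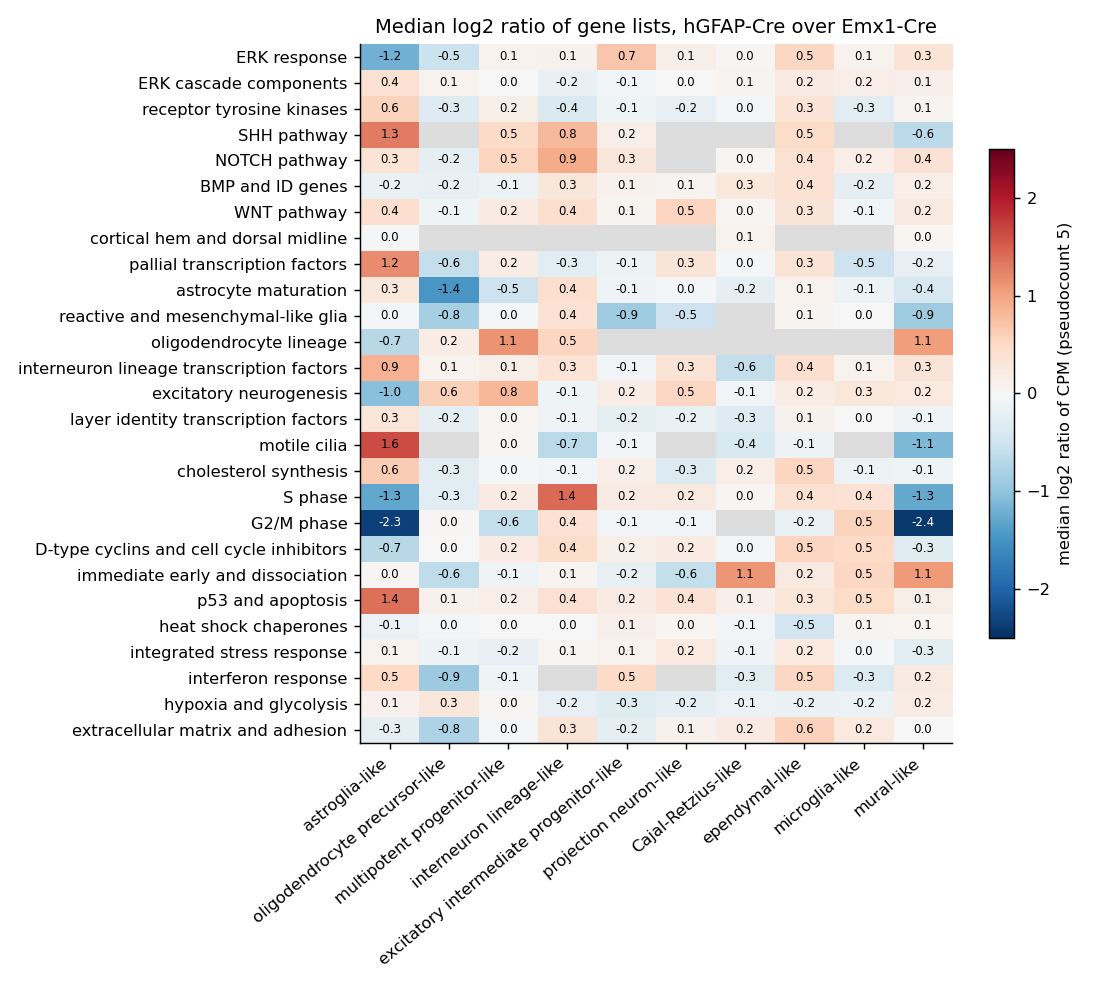
Median log2 ratio (hGFAP-Cre over Emx1-Cre) of each gene list, rows, in each cell class with at least 50 cells in both libraries, columns; lists with under 4 measured members in a class are grey. The astroglia-like column holds the lowest ERK response median (-1.20) and the highest p53 median (1.38), and the G2/M median is low in astroglia-like (-2.33) and mural-like cells.

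A few genes differed in the same direction in at least 6 of 10 classes, 5 higher and 16 lower. Prm1, which encodes the sperm chromatin protein protamine (chromosome 16, 10796326 to 10805839), was nearly absent from the Emx1-Cre library (3 UMIs in all analysed cells) and stood at 566 CPM in the hGFAP-Cre library. At 3000 UMIs per cell it was seen in 96.4% (95.5 to 97.1) of hGFAP-Cre astroglia-like cells, 57.5% of multipotent progenitor-like, 39.1% of ependymal-like, 26.6% of oligodendrocyte precursor-like, 7.55% of interneuron lineage-like, 7.29% of intermediate progenitor-like and 4.42% of projection neuron-like cells. In Cajal-Retzius-like and microglia-like cells the share was 1.07% (0.291 to 2.71) and 1.62% (0.527 to 3.74). Whether the Prm1 UMIs came from the native gene was not tested. Cdkn1a was called higher in 7 classes. At 3000 UMIs, it was seen in 4.79% and 45.2% of astroglia-like, 3.71% and 18.7% of intermediate progenitor-like, 3.65% and 5.18% of projection neuron-like and 16.7% and 38.5% of microglia-like cells. Shares were also higher in Cajal-Retzius-like (19.2% and 38.1%), interneuron lineage-like (0% and 10.8%) and ependymal-like cells (52.2% and 64.4%). The intervals overlapped in multipotent progenitor-like (12.3% and 20.7%) and mural-like cells (8.59% and 6.02%). In oligodendrocyte precursor-like cells, among the 7, the shares were 3.38% and 3.46%.

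Snhg12, a small nucleolar RNA host gene, and Cwc22, a splicing factor gene, were called lower in all 10 classes, microglia included. Over all analysed cells they stood at 65.3 and 8.57 CPM and at 76.4 and 18.8 CPM. Erdr1 (325 and 139 CPM) and the neuronal genes Gap43 (594 and 204 CPM) and Stmn2 (1474 and 630 CPM) were lower in at least 6 classes. In microglia-like cells, which do not make them, Gap43 and Stmn2 had log2 ratios of -1.63 and -1.14.

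**Figure D5:**
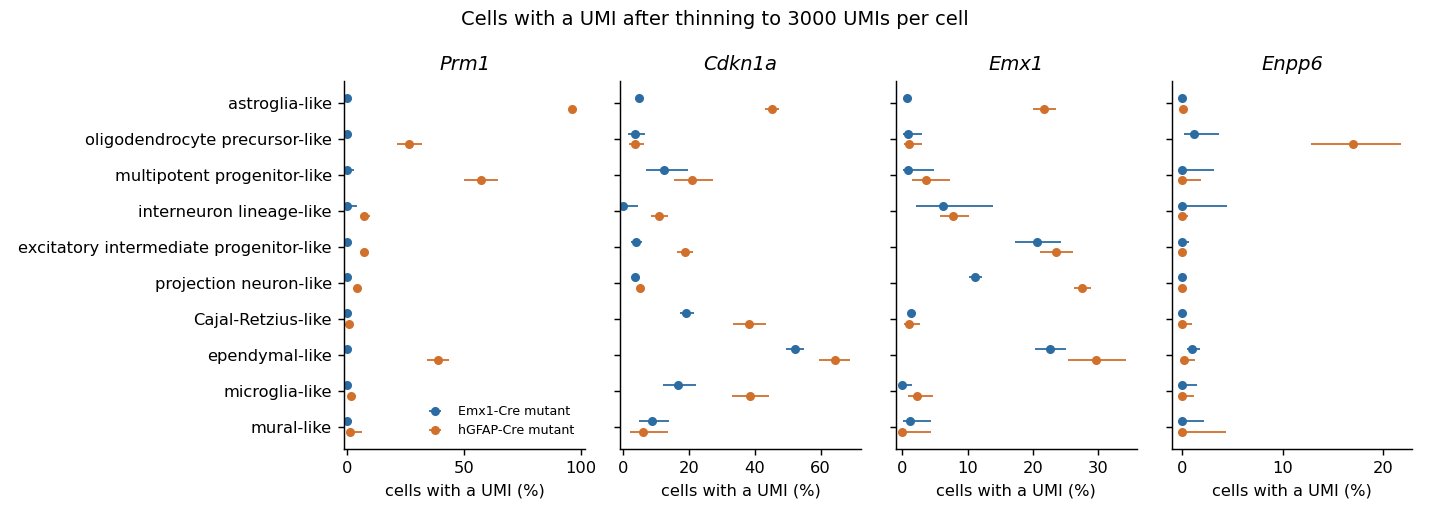
Percent of cells with at least 1 UMI of Prm1, Cdkn1a, Emx1 and Enpp6 in each class after thinning every cell to 3000 UMIs, for the Emx1-Cre (blue) and hGFAP-Cre (orange) mutants, with 95% Clopper-Pearson intervals. Prm1 reaches 96.4% in hGFAP-Cre astroglia-like cells, and Enpp6 reaches 17.0% in hGFAP-Cre oligodendrocyte precursor-like cells. Cdkn1a is higher in several hGFAP-Cre classes, with astroglia-like, microglia-like and Cajal-Retzius-like cells (the last 19.2% and 38.1%) among them.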

How the data were processed

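Single-cell RNA libraries of both mutants were used as the authors deposited them: matrices of raw UMI counts per gene and barcode, made with Cell Ranger 5.0.0 per the file headers, on mm10 per the submitters' processing notes. Groups came from the sample labels. Barcodes with at least 1000 genes and under 10% mitochondrial UMIs were kept, and Scrublet doublets (expected rate 10%) were left out. Cells of both libraries were clustered on 128 marker genes (20 principal components, 15 neighbours, Leiden resolution 1). A marker counted as raised from 1.5-fold on in at least 25% of a cluster's cells, a level chosen after the clusters were seen, and a name needed at least 3 raised markers. UMIs were summed per class with at least 50 cells in each library, scaled to CPM and compared as log2 ratios with a pseudocount of 5 CPM. Genes at 10 CPM or more in either library were measured, and called from 2-fold on. The genes named were the furthest apart among called list members and, from 50 CPM on, outside the lists and markers. Outside the lists, their Poisson intervals had to lie apart. Genes called in the same direction in at least 6 classes were left out there, as were sex-linked, mitochondrial, ribosomal protein, haemoglobin and unnamed predicted genes. For classes other than microglia, genes called in the same direction in microglia-like cells were also left out. Other members of the lists were named after their values were seen. Shares of cells with a UMI were taken after thinning to 3000 UMIs, leaving out shallower cells. Intervals are 95% Clopper-Pearson or exact Poisson. The members and lists were chosen with earlier results of these data known. Scripts were tested on simulated data. Tools were Python 3.11.15, scanpy 1.11.5, numpy 2.4.6, scipy 1.17.1, scikit-learn 1.9.0, leidenalg 0.10.2 and igraph 0.11.9. Gene positions are from GENCODE annotation of GRCm38. The values of a few genes are not reported here.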

Additional observations from a re-analysis of the deposited data

How the results depend on the processing

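No paired analysis was possible because each genotype had 1 library. The depth differed between libraries within classes, which limits shares of shallow cells. Of the class share ratios recomputed, 68 moved by less than their interval, 19 moved further and 1 reversed. Multipotent progenitors had no named cluster with variable genes or with each library clustered alone. Unless stated, the cause of a shift was not tested. Restriction to 1 cluster, to cycling cells (Mki67 or Top2a seen), raising of the marker threshold to 2-fold and joining of unnamed clusters were chosen after seeing the data.

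The log2 ratio of the astroglial share, 0.33, was 0.54 with variable genes to cluster, 0.61 with each library clustered alone, 0.75 with cells called 1 by 1, 0.66 with unnamed clusters joined and -0.0256 at 2000 genes per cell. At 2000 genes the ratio was 1.55 for oligodendrocyte precursors, 1.73 for intermediate progenitors, -0.35 for projection neurons and -1.72 for ependymal cells. With each library clustered alone it was 1.13 for the interneuron lineage, 1.42 for intermediate progenitors and -0.35 for projection neurons. Intermediate progenitors had 0.66 with markers raised from 2-fold on and 1.17 with the unnamed cluster joined. Projection neurons had -0.36 at resolution 2, -0.52 with cells called 1 by 1, -0.39 with doublets kept and -0.43 with markers raised from 2-fold on.

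In astroglia, 886 genes were higher and 440 lower, against 360 and 204 with a pseudocount of 20 CPM, 408 and 197 for genes at 50 CPM or more, and 571 higher after centring on the median. Within cluster 0 there were 535 and 199, within cluster 2 566 higher, and in cycling cells 194 lower. The ERK response median, -1.20, was -0.75 with a pseudocount of 20 CPM, -1.41 with 1 CPM, -1.45 after centring, -0.68 in cluster 0, -0.61 in cluster 2 and -0.65 in cycling cells. The G2/M median, -2.33, was -1.77 and -2.53 with those pseudocounts, -2.53 with every cell weighing alike, -2.57 after centring, -2.1 in clusters with 50 cells of each library, -1.09 with variable genes, -2.77 with cells called 1 by 1, -1.40 in cluster 0, -1.23 in cluster 2 and -0.16 in cycling cells. Without thinning, 45.4% and 5.75% of astroglia cycled.

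Some list medians reversed: astrocyte maturation was -0.36 in cycling cells, and interferon response -0.45 for genes at 50 CPM or more. Oligodendrocyte lineage was 0.17 with variable genes, 0.21 in cluster 0 and 0.78 in cluster 2. D-type cyclins and inhibitors had 0.0067 in cluster 2, and extracellular matrix 0.19 in cluster 0 and 0.036 in cluster 2. Cryab had -0.24 in cluster 2, Tekt1 -0.47 in cluster 2, and Egfr 0.49 in cluster 0 and 0.52 in cluster 2.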
